A study of Mus musculus with 28 samples.

Results

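The 10 genes described here are the members of the Bcl2 family of apoptosis regulators named Bax, Bak1, Bcl2, Bcl2l1, Mcl1, Bcl2l11, Bbc3, Pmaip1, Bid and Bad. They were taken by gene symbol from 43253 features measured by polyA RNA sequencing of mouse male germ cells, and all 10 passed the filter on low counts that kept 17519 genes for testing. The cells carried a PIWIL2-eGFP reporter and were sorted from testes of wild-type mice (WT) and of mice lacking Stra8 (KO). Stra8 is a retinoic acid-induced gene that germ cells need to enter meiosis. Per the labels, all mice derived from a C57BL/6 x 129s4/SvJae background and all received WIN 18,446, an inhibitor of retinoic acid synthesis, for 7 days, so WT and KO groups share that treatment. WT and KO testes were collected then (0 h) or 12, 18, 48, 72, 96 or 120 h after an injection of retinoic acid, which gave 14 groups of 2 libraries. Which part of Stra8 is lacking in the KO, and the age of the mice, are not given in the sources used here. No label says whether the 2 libraries of a group came from separate animals, so each p-value reflects the spread of these libraries alone, and that spread may be technical.

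Bcl2 family proteins decide whether the outer membrane of the mitochondrion is opened, the step that releases cytochrome c and activates caspases. The effectors Bax and Bak1 form the pores, the anti-apoptotic members Bcl2, Bcl2l1 (BCL-XL) and Mcl1 hold them in check, and the BH3-only members Bcl2l11 (BIM), Bbc3 (PUMA), Pmaip1 (NOXA), Bid and Bad relieve that check or activate the effectors. In the mouse testis an early wave of germ cell death needs Bax, and Bcl2l1 is known to be needed for germ cell survival.

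Levels are given as CPM, the count divided by the total count of the library and scaled to a total of 1000000 reads, for the library of the first and then of the second deposited count table. Total counts were 5757921 to 10147341 in WT libraries and 914126 to 9517360 in KO libraries. The KO libraries of the second table at 72, 96 and 120 h were shallow, with 1079696, 914126 and 1031189 reads, and are referred to as the 3 shallow KO libraries. Stra8 was lower in both KO libraries than in both WT libraries at all 7 times, by -4.35 ± 0.39 (log2 fold change ± SE) on average. The library labelled KO at 48 h in the first table had 417 Stra8 reads (62.1 CPM) against 2.09 CPM in the other, below both WT libraries at that time (97.0 and 199 CPM) but within the WT range at later times, and the 48 h difference was -2.13 ± 0.77 (edgeR adjusted p = 0.438). The Stra8 difference also did not pass at 0 h (-3.24 ± 1.13, 0.710), where both genotypes were low, and passed at the other 5 times. The 6 germ cell markers, among them Ddx4 and Dazl, summed to 2296 to 4771 CPM in WT and 3381 to 4144 CPM in KO. In these bulk samples, fewer cells of a type and less RNA per cell cannot be told apart. The 18 markers of Sertoli, peritubular and stromal cells summed to 109.5 to 452.1 CPM in WT (median 222.3) and to 194.9 to 1112 CPM in KO (median 420.9). This sum was higher in both KO than in both WT libraries at 5 of the 7 times (12, 18, 72, 96 and 120 h). Clu and Col1a1 led it, with medians of 46.7 and 80.0 CPM in WT and 105 and 199 CPM in KO. Not every marker of the sum was higher in KO. Medians were lower in KO for Col1a2 (13.55 CPM in WT, 12.98 in KO) and Col3a1 (11.05 and 10.91). They were also lower for Pdgfra (9.67 and 8.42) and Cst9 (1.71 and 1.07), while the medians of the other markers were higher in KO. The 8 markers of undifferentiated spermatogonia summed to a median of 680 CPM in WT (413 to 1819) and of 1091 CPM in KO (859 to 1738). Among them the median of Etv5 was lower in KO (50.2 CPM in WT, 34.3 in KO), and the medians of the others were higher. Insl3 of Leydig cells and Tnp2 of spermatids were at 0 in all 28 libraries.

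Of the 10 members, 9 had promoter windows in the RefSeq table (GRCm38.p6), and the 250 bases before each annotated start were searched. The windows of Bcl2l11 and Bbc3 are shown because these are the members whose mean difference between KO and WT, described next, passed whichever library was left out, and because these differences had opposite signs. For each gene the window printed is the one that holds the FOXO motif GTAAACA, searched on both strands. The match is in capitals.
Bcl2l11, chr2:128125788-128126037, plus strand: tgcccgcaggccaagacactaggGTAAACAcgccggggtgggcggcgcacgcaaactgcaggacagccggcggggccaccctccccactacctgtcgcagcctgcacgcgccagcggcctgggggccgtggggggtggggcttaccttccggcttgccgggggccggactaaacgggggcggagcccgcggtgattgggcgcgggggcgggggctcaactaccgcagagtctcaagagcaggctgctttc
Bbc3, chr7:16310011-16310260, plus strand: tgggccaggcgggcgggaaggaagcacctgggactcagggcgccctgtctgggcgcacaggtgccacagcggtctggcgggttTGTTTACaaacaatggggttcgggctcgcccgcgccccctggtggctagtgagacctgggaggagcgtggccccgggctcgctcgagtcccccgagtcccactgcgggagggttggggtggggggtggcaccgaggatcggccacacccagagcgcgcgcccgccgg
In Bcl2l11 the motif stands on the strand shown, 227 bases before the start, and in Bbc3 its reverse complement stands 167 bases before a second annotated start. Of 32851 promoter windows of this length, 3.17% held this motif, a share that describes the motif and not this pair, which was chosen with the match known. The motif CNCCTCAG, which has been described for STRA8, was in none of the members' windows and in 6.42% of all windows. The retinoic acid receptor half-site AGGTCA, in 14.02% of all windows, was found in a window of Bcl2l1. A match is a run of letters and no evidence of binding.

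Divided by exon length and ordered by median, neighbouring members separated in every library at 3 places, below Bax, below Bid and below Bcl2l11. Bax stood at a median of 63.4 CPM per kb over the 28 libraries and was above Mcl1, the next member, in 28 of 28. Mcl1 (21.2 CPM per kb) and Bcl2l1 (20.4) did not separate, since Mcl1 was the higher in 15 of 28 libraries, and Bcl2l1 was above Bid (16.1) in 22. Bid was above Pmaip1 (6.64) in 28 of 28. Pmaip1 was above Bad (4.43) in 19 and Bad above Bcl2l11 (4.41) in 18, so these 3 were not ordered beyond their spread. Bcl2l11 exceeded Bbc3 (1.03) in 28 of 28 and Bbc3 exceeded Bak1 (0.329) in 27. Bad, though ranked above Bcl2l11, was just below Bbc3 in the second KO library at 18 h (1.541 against 1.546 CPM per kb). Bak1 was above Bcl2 (0.163) in 17 of 28 libraries, so the order of these lowest members was not settled either. Bak1 had at most 17 reads in a library, Bbc3 at most 30 and Bcl2 at most 31. Exon lengths were merged over all annotated transcripts, so a gene with a rarely used long transcript is placed too low on this scale.

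**Figure D1:**
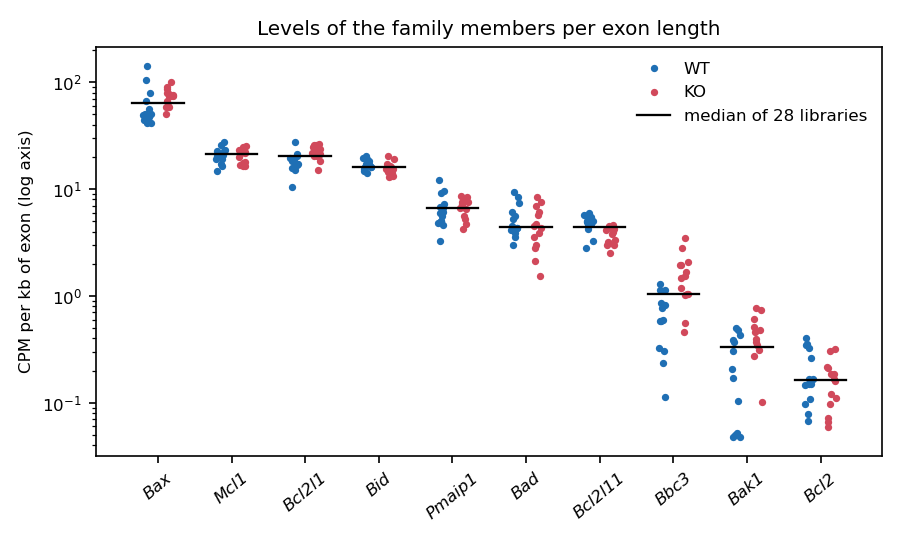
Level of each member in CPM per kb of merged exon (log axis) in the 14 WT and 14 KO libraries, with a line at the median of all 28; 3 values of 0 for Bak1 cannot be drawn on the log axis. Bax lies above every other member, and the medians of Bbc3, Bak1 and Bcl2 lie below those of the rest, with some Bbc3 points among them.

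Averaged over the 7 times, 4 members were higher and 1 was lower in KO than in WT (edgeR quasi-likelihood test with Benjamini-Hochberg adjustment over all tested genes, threshold 0.05). Bbc3, Bak1, Bcl2l1 and Bax were higher, and Bcl2l11 was lower. That is 5 of 10 against 37.5% of all genes tested in this comparison, with 17.4% higher and 20.1% lower. The members' median log2 difference was 0.02, beside -0.02 for all genes. Mitochondrial genes held 4.55 to 8.55% of the reads in KO, 1.98 to 3.06% in WT libraries of the first table and 3.21 to 6.79% in those of the second, and their part in these differences was not tested. Without the library labelled KO at 48 h in the first table, Bax did not pass (0.28, adjusted p = 0.0576), Bid did (-0.19, 0.0403), and the other 4 calls held.

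Bax (chr7:45461697-45466898, minus strand), the pore-forming effector, in WT measured 67.4 and 65.4 CPM (0 h), 70.3 and 79.6 (12 h), 80.0 and 106 (18 h), 124 and 165 (48 h), 65.5 and 77.8 (72 h), 87.8 and 226 (96 h), and 76.3 and 75.3 (120 h). In KO it measured 138 and 91.7 CPM (0 h), 80.1 and 95.2 (12 h), 91.7 and 105 (18 h), 116 and 142 (48 h), 122 and 120 (72 h), 117 and 159 (96 h), and 119 and 125 (120 h). KO was above WT in both libraries at 0, 12, 72 and 120 h and overlapped it at 18, 48 and 96 h, the times at which WT was highest. Over all genes and times, both KO libraries lay below both WT libraries in 23.8% of cases and above them in 23.2%. The mean log2 difference was 0.29 ± 0.11 (edgeR adjusted p = 0.0345), and the call was lost in 20 of 28 runs that left out 1 library, with adjusted p up to 0.110. Within WT, Bax rose by 1.12 ± 0.28 at 48 h (adjusted p = 0.0108) and by 1.23 ± 0.28 at 96 h (0.00268). The 96 h change came from 1 library, since without the second WT library it was 0.36 (adjusted p = 0.354), and the 48 h change was 0.89 (0.162) without the second WT library at that time. The 48 h call was also lost without either 0 h library (0.117 and 0.0680) and in a fit of WT alone (0.0536). Gm45808 on the same strand shares 12.2% of the exon bases of Bax.

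Bak1 (chr17:27019810-27029009, minus strand), the second effector, had 0 to 9 reads in WT libraries and 0 to 17 in KO libraries, or 0 to 1.20 and 0 to 1.85 CPM. A count of 0, found in 3 libraries, allows up to 3 reads in each. Its libraries overlapped at 5 of 7 times. KO was above at 12 and 72 h, beside 23.2% of cases over all genes and times. The mean log2 difference of 1.26 ± 0.43 (edgeR adjusted p = 0.0252) was lost without the first KO library at 0 h (0.94, adjusted p = 0.156), at 18 h (1.20, 0.0528), at 96 h (0.42) or at 120 h (0.44). Ggnbp1 on the other strand shares 25.5% of its exon bases, and the counting's use of strand is not stated.

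Bcl2l1 (chr2:152780668-152831728, minus strand), which encodes the survival factor BCL-XL, in WT measured 94.0 and 79.2 CPM (0 h), 98.4 and 88.6 (12 h), 84.9 and 89.3 (18 h), 69.8 and 79.2 (48 h), 77.6 and 48.3 (72 h), 72.8 and 127 (96 h), and 78.2 and 78.1 (120 h). In KO it measured 113 and 101 CPM (0 h), 97.8 and 119 (12 h), 93.0 and 99.4 (18 h), 69.3 and 109 (48 h), 107 and 84.3 (72 h), 112 and 118 (96 h), and 121 and 94.1 (120 h). KO was above WT at 0, 18, 72 and 120 h, beside 23.2% of cases over all genes and times. It overlapped WT at the other 3 times. The mean log2 difference was 0.30 ± 0.09 (edgeR adjusted p = 0.0145). This call was lost without the second WT library at 0 h (0.25, adjusted p = 0.0531) or the KO library 2 at 48 h (0.22, 0.0812), 1 at 72 h (0.23, 0.0738) or 1 at 120 h (0.23, 0.0824).

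Bcl2l11 (chr2:128126038-128162547, plus strand) encodes BIM, an activator that binds all anti-apoptotic members. Its WT level was 22.5 and 26.5 CPM (0 h), 44.1 and 39.1 (12 h), 37.8 and 34.2 (18 h), 42.0 and 42.9 (48 h), 46.3 and 47.8 (72 h), 40.3 and 40.3 (96 h), and 38.0 and 36.8 (120 h). In KO it was 25.6 and 24.2 CPM (0 h), 33.4 and 36.3 (12 h), 26.9 and 35.7 (18 h), 33.8 and 30.5 (48 h), 36.8 and 35.2 (72 h), 25.0 and 31.7 (96 h), and 24.1 and 20.4 (120 h). WT and KO overlapped at 0 and 18 h. At the other 5 times (12, 48, 72, 96 and 120 h) both KO libraries lay below both WT libraries. Over all genes and times that held in 23.8% of cases. The mean log2 difference for Bcl2l11 was -0.37 ± 0.07 (edgeR adjusted p = 3.48e-04), and it kept an adjusted p of at most 0.00169 whichever of the 28 libraries was left out.

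At single times, the difference in Bcl2l11 passed the threshold at 120 h alone, at -0.81 ± 0.20 (edgeR adjusted p = 0.00931). There 15.4% of all genes passed, 6.88% as lower, and 1 member did. This call was lost without the second WT library at 120 h (adjusted p = 0.0657) or without the second KO library, 1 of the 3 shallow ones (-0.68, adjusted p = 0.0734), and with no filter (0.0635) or the 4 libraries of that time alone (0.109). For KO at 120 h, the deposited CPM column that matches no count column gave Bcl2l11 27.4 CPM from 113 recovered reads, still below both WT libraries.

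Within WT, the change of Bcl2l11 against 0 h passed the test at 5 of the 6 later times. Between 10.9% (12 h) and 28.9% (120 h) of all genes passed at those times. The log2 change was 0.77 ± 0.19 at 12 h (adjusted p = 0.00782), 0.53 ± 0.19 at 18 h (0.0711, not past the threshold), 0.79 ± 0.19 at 48 h (0.00677), 0.98 ± 0.19 at 72 h (0.00153), 0.72 ± 0.19 at 96 h (0.00643) and 0.67 ± 0.19 at 120 h (0.00995). In KO the values were 0.51 ± 0.19 at 12 h, 0.39 ± 0.19 at 18 h, 0.41 ± 0.19 at 48 h, 0.54 ± 0.20 at 72 h, 0.13 ± 0.20 at 96 h and -0.14 ± 0.20 at 120 h, none past the threshold. All these WT changes share the 0 h libraries, and without the first of those each of the 5 calls was lost, with log2 changes of 0.49 to 0.78 and adjusted p of 0.0832 to 0.184. The 12 h call was also lost without the first 12 h library (0.121), the 48 h and 120 h calls without the second library of the time (0.0677 and 0.0800), and all but the 72 h call with no filter on low counts (0.0669 to 0.104). The Sertoli, peritubular and stromal marker sum was lower at 12 h (142.5 and 177.4 CPM) than at 0 h (318.1 and 452.1) in WT, and with it as a covariate the 12 h change of Bcl2l11 was 0.78 (0.0597) and did not pass, while its calls at 48, 72, 96 and 120 h did. The difference between the 2 courses did not pass the interaction test for Bcl2l11.

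**Figure D2:**
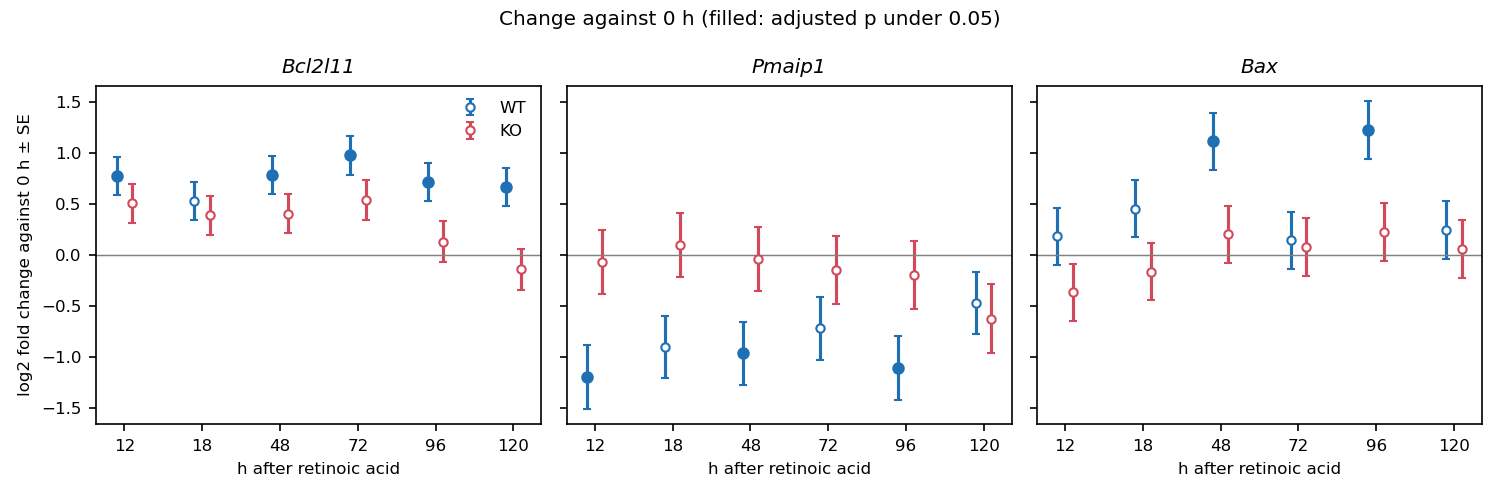
Log2 fold change against 0 h of the same genotype (± SE from the edgeR fit) for Bcl2l11, Pmaip1 and Bax in WT and KO; filled points have an adjusted p under 0.05. All filled points are WT, 5 for Bcl2l11, 3 for Pmaip1 and 2 for Bax.

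Bbc3 (chr7:16308393-16318205, plus strand) encodes PUMA, a p53 target that binds all anti-apoptotic members. In WT it measured 1.83 and 1.64 CPM (0 h), 0.690 and 1.23 (12 h), 0.496 and 1.23 (18 h), 1.76 and 1.73 (48 h), 0.240 and 0.651 (72 h), 1.26 and 2.43 (96 h), and 2.39 and 2.74 (120 h). In KO it measured 3.15 and 2.20 CPM (0 h), 2.18 and 2.20 (12 h), 1.17 and 3.28 (18 h), 4.17 and 5.98 (48 h), 3.58 and 7.41 (72 h), 2.54 and 4.38 (96 h), and 4.15 and 0.970 (120 h). Both KO libraries were above both WT libraries at 5 of 7 times, beside 23.2% of cases over all genes and times. The groups overlapped at 18 and 120 h. The mean log2 difference was 1.30 ± 0.24 (edgeR adjusted p = 2.10e-04), with adjusted p of at most 0.0307 when any 1 library was left out. With the Sertoli, peritubular and stromal marker sum as a covariate it was 0.61 (0.344) and did not pass.

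At 72 h the Bbc3 difference reached 3.34 ± 0.71 (edgeR adjusted p = 0.0113), the 1 member called at that time, where 4.7% of all genes passed, 2.58% as higher. It rested on 2 and 6 reads in WT and on 19 and 8 reads in KO. Without the first WT library or the shallow KO library at 72 h it was 2.83 (adjusted p = 0.109) or 2.93 (0.0792), and with the 4 libraries of that time alone 3.38 (0.199). Against 0 h, Bbc3 had no call in either genotype in the main edgeR fit. With recovered reads in place of the 3 shallow KO libraries, it passed in WT at 72 h.

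**Figure D3:**
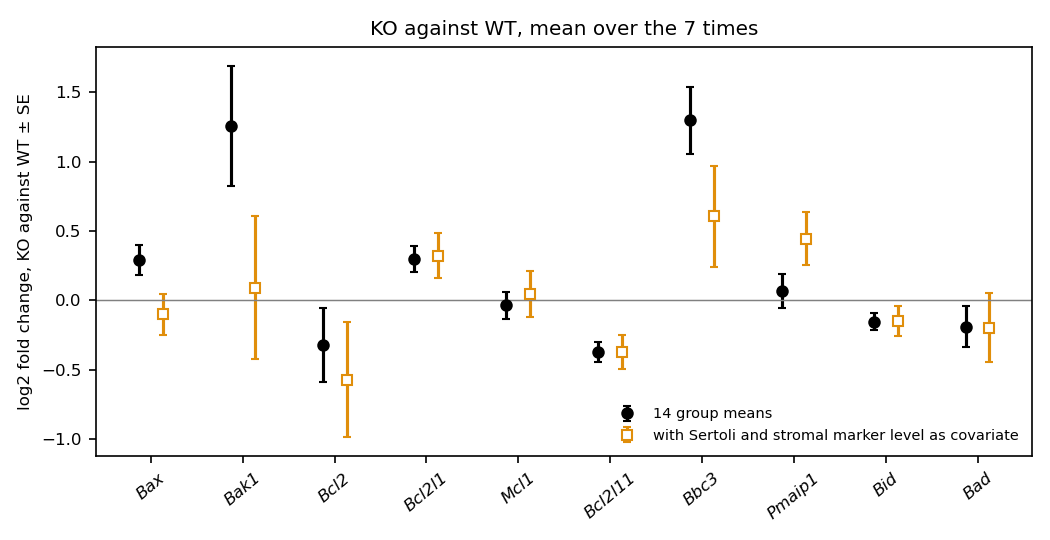
Log2 fold change of KO against WT, mean over the 7 times (± SE), in the fit of 14 group means (black) and with the summed level of 18 Sertoli, peritubular and stromal markers added per library (orange squares). Bcl2l11 and Bcl2l1 stay at about -0.37 and 0.3, while Bak1 and Bax move to 0.09 and -0.10.

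The Sertoli, peritubular and stromal marker sum was higher in KO than in WT at the times given above, so the mean comparison was repeated with that sum as a covariate, a step chosen after the data were seen. None of the 5 members then passed in edgeR, and over all genes the calls went from 6568 to 1568. Bcl2l11 kept its size, at -0.37 (adjusted p = 0.0614), and Bcl2l1 stood at 0.32 (0.243). Bbc3 was 0.61 (0.344), Bak1 0.09 (0.959) and Bax, with its sign turned, -0.10 (0.752). How far marker RNA and genotype each account for these values cannot be told apart here.

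The remaining 5 members did not pass the mean comparison. Mcl1 (chr3:95658788-95663176, plus strand), a short-lived anti-apoptotic protein's gene, ran from 50.4 to 94.0 CPM in WT and from 56.2 to 86.1 in KO and overlapped at all 7 times, with a difference of -0.04 ± 0.10. Its sign depended on the library left out, from -0.10 to 0.03. Bcl2 (chr1:106538178-106714274, minus strand) ran from 0.622 to 3.72 CPM in WT, highest at 18 h (2.38 and 3.19) and 72 h (3.72 and 3.25), and from 0.545 to 2.91 in KO. Bid (chr6:120891930-120916853, minus strand), which caspase-8 cleaves to link death receptors to mitochondria, ran from 50.7 to 72.2 CPM in WT and from 46.0 to 73.3 in KO. KO was below WT at 5 of 7 times for Bid, beside 23.8% of cases over all genes and times. The mean difference of Bid was -0.15 ± 0.06 (edgeR adjusted p = 0.0609). It passed in 10 of 28 runs that left out 1 library, with adjusted p from 0.0342 to 0.128. Bcl2l13 on the other strand shares 17.7% of the exon bases of Bid, Gpr137 on the other strand 20.5% of Bad, and D630008O14Rik on the other strand 6.09% of Bcl2.

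Pmaip1, whose product NOXA binds MCL1, showed its highest WT level before retinoic acid. In WT it measured 33.5 and 26.2 CPM (0 h), 12.7 and 13.03 (12 h), 18.7 and 13.7 (18 h), 16.8 and 13.7 (48 h), 15.2 and 19.95 (72 h), 18.2 and 8.86 (96 h), and 25.3 and 16.3 (120 h). In KO it measured 18.1 and 23.5 CPM (0 h), 18.7 and 19.8 (12 h), 20.8 and 21.5 (18 h), 20.9 and 17.9 (48 h), 21.9 and 12.97 (72 h), 15.4 and 23.0 (96 h), and 14.3 and 11.6 (120 h). KO was thus below WT at 0 h and 120 h, above it at 12, 18 and 48 h, and overlapped it at 72 and 96 h. Over all genes and times, KO was below in 23.8% of cases and above in 23.2%. Pmaip1 fell in WT by 1.20 ± 0.31 at 12 h (edgeR adjusted p = 0.0127), by 0.97 ± 0.31 at 48 h (0.0396) and by 1.11 ± 0.31 at 96 h (0.0101) on the log2 scale. In KO the changes were -0.07 ± 0.32 at 12 h, -0.04 ± 0.32 at 48 h and -0.20 ± 0.34 at 96 h. Its interaction p was 0.0498 before and 0.512 after edgeR's adjustment. The WT calls were all lost without the first 0 h library, where the changes were -1.06 (adjusted p = 0.117), -0.82 (0.255) and -0.99 (0.0821). With the marker covariate the 12 h change was -1.81 (0.00351), and Pmaip1 passed at all 6 later times. The 12 h call was lost without either 12 h library (0.0842 and 0.0845), the 96 h call without the second 96 h library (-0.76, 0.138) and the 48 h call in 8 of 28 such runs and in a fit of WT alone (0.0867).

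Bad (chr19:6941861-6951899, plus strand), a BH3-only protein held inactive by phosphorylation, measured 10.6 and 9.16 CPM at 0 h in WT and 18.9 and 24.1 at 96 h, a rise of 1.11 ± 0.38 (edgeR adjusted p = 0.0307). At 120 h it measured 13.5 and 21.6 CPM. The 96 h call was lost without either 0 h library (1.17, adjusted p = 0.129, and 1.02, 0.143) or without the second library at 96 h (0.89, 0.196). In KO, Bad measured 9.04 and 10.0 CPM at 0 h and 21.6 and 5.47 at 96 h, the latter from 1 of the shallow libraries.

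**Figure D4:**
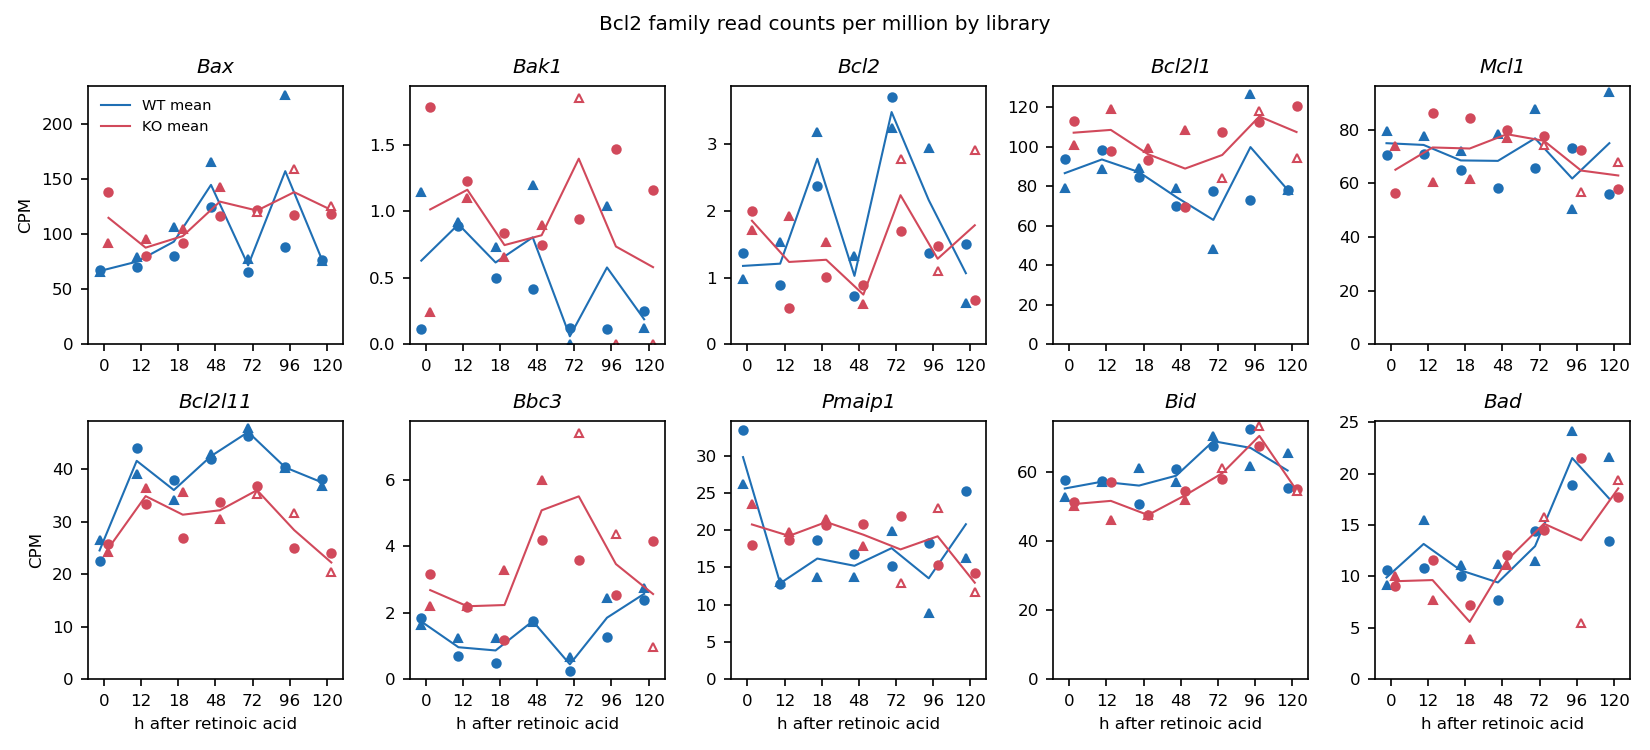
CPM of each member in every library by hours after retinoic acid (WT blue, KO red; circles are the first and triangles the second count table; open triangles are the 3 shallow KO libraries; lines join group means). Both KO libraries of Bcl2l11 lie below both WT libraries at 5 of 7 times, Pmaip1 in WT is highest at 0 h, and the Bax peak at 96 h in WT is 1 library at 226 CPM.

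Over the whole course, 3 of 10 members changed in WT, namely Bax (edgeR adjusted p = 0.00257), Bcl2l11 (0.00764) and Pmaip1 (0.0245), beside 37.3% of all genes tested. The replicate number was also fitted as a block, which paired the WT libraries and was common to WT and KO. With it 6 of 10 passed, the others being Bad (0.0456), Bbc3 (0.0271) and Bcl2 (0.0404). The share of 37.3% belongs to the fit without the block and is no background for this count. Among the other tested apoptosis genes, described below, 23 changed in WT without the block and 25 with it. Without the first WT library at 0 h, Bcl2l11 (0.185) and Pmaip1 (0.181) did not pass, and without the second Pmaip1 stood at 0.0530. In a fit of WT alone Bcl2l11 (0.0550) and Pmaip1 (0.0783) did not pass, and with no filter on low counts Bcl2l11 stood at 0.163. By time, 2 members passed against 0 h at 12 h (10.9% of all genes), 0 at 18 h (11.9%), 3 at 48 h (12.8%), 1 at 72 h (12.9%), 4 at 96 h (26.7%) and 1 at 120 h (28.9%). At 18 h, edgeR gave 2 members an unadjusted p under 0.05 and DESeq2 called 1, Pmaip1, as did the block. Of these 11 calls, 1 was left without the first WT library at 0 h.

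In KO, 0 of 10 members passed any change over the course in edgeR, beside 15.8% of all genes, with 2 at an unadjusted p under 0.05 and 1 called by DESeq2 (Bad, adjusted p = 0.0384). Against 0 h none passed in edgeR or DESeq2 at any of the 6 later times, where 8.57% (12 h), 8.93% (18 h), 4.51% (48 h), 0.491% (72 h), 1.75% (96 h) and 0.953% (120 h) of all genes did. Of the members, 1, 0, 1, 1, 1 and 1 had an unadjusted p under 0.05 at these times. For KO against WT at 0, 12, 18, 48 and 96 h edgeR and DESeq2 called 0 members, where edgeR passed 0%, 1.18%, 4.14%, 0.308% and 4.47% of all genes. Of the members, 1, 0, 2, 1 and 1 had an unadjusted p under 0.05. The interaction of genotype and time passed for 0 of 10 members in edgeR and in DESeq2, with 1 at an unadjusted p under 0.05, and for 0.108% of all genes. A course that changed in WT and did not pass in KO is thus not shown to differ between them.

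The other apoptosis genes listed for comparison were 56, of which 47 were tested. Averaged over times, 10 were higher and 10 lower in KO, beside 17.4% and 20.1% of all genes (18 to 21 called when 1 library was left out, 7 with the marker covariate). The 3 largest rises were in Hrk, a BH3-only gene, at 1.23 ± 0.16, Trp73, a p53 relative, at 0.89 ± 0.25, and Vdac1, a mitochondrial channel, at 0.77 ± 0.10. The 3 largest decreases were in Bnip3, a mitophagy receptor, at -0.71 ± 0.21, Xiap, a caspase inhibitor, at -0.67 ± 0.09, and Ripk1, a death receptor kinase, at -0.63 ± 0.13. With the marker covariate Hrk (1.11, edgeR adjusted p = 0.0153), Vdac1 (0.73, 0.00740) and Xiap (-0.46, 0.0370) passed, and Trp73 (0.513), Bnip3 (0.772) and Ripk1 (0.149) did not. Trp73 also did not pass without the first KO library at 48 h (0.0819).

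At 12 h in WT 3 of the 47 rose and 3 fell, beside 10.9% of all genes called. Those that fell included both FOXO factor genes of the list, Foxo1 by 1.53 ± 0.21 (edgeR adjusted p = 2.43e-05) and Foxo3 by 0.79 ± 0.19 (0.00658) on the log2 scale, with Tnfrsf1a, a death receptor, at -1.59 ± 0.35. Birc5, a mitotic member of the caspase inhibitor family, rose by 1.36 ± 0.22, Apaf1, the apoptosome scaffold, by 0.76 ± 0.21 and Xiap by 0.76 ± 0.22. In KO at 12 h Foxo1 (-0.91 ± 0.20), Foxo3 (-0.92 ± 0.19), Tnfrsf1a (-2.02 ± 0.37), Birc5 (1.11 ± 0.22) and Xiap (0.91 ± 0.23) passed in the same directions, 5 of the 47 beside 8.57% of all genes. Of the WT calls at 12 h, those of Foxo1 and Birc5 held without any 1 library. Foxo3 was lost without the first 0 h library or the second 12 h library, Tnfrsf1a without the first 12 h library, Apaf1 without any of the 4 libraries and Xiap without any of them except the second at 0 h. In KO at 12 h, Tnfrsf1a held, Foxo1 was lost without the second 12 h library, Birc5 and Foxo3 without the first 0 h or first 12 h library, and Xiap without the first 0 h or either 12 h library. Between 0 and 12 h the Sertoli, peritubular and stromal marker sum went from 318.1 and 452.1 to 142.5 and 177.4 CPM in WT and from 652.4 and 441.9 to 222.9 and 200.6 CPM in KO. With this sum as a covariate, Foxo1 and Birc5 passed at 12 h in both genotypes. In WT Foxo3 (adjusted p = 0.0597), Tnfrsf1a (0.0864), Apaf1 (0.168) and Xiap (0.405) did not pass, nor in KO did Tnfrsf1a (0.0570), Foxo3 (0.0590) and Xiap (0.321).

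Over the whole course 23 of the 47 changed in WT, beside 37.3% of all genes, and 6 in KO, beside 15.8%. With 1 library left out these counts ran from 14 to 24 in WT and from 1 to 10 in KO, and with the marker covariate they were 20 and 2. The WT count was 14 without the first library at 0 h. The KO count was 1 without the first library at 0 h, 3 without the second at 12 h or the first at 18 h, and 10 without the first at 96 h. In edgeR 0 passed the interaction test, with 2 at an unadjusted p under 0.05. At 120 h in WT the 3 largest rises were in Tnfrsf21 (2.96 ± 0.66), a death receptor, Birc5 (1.58 ± 0.22) and Htra2 (1.52 ± 0.27), a mitochondrial protease. The 3 largest decreases were in Hrk (-1.53 ± 0.45), Cflar (-1.34 ± 0.44), the caspase-8 inhibitor FLIP, and Cyct (-1.21 ± 0.42), the testis cytochrome c. Of these, Birc5 and Htra2 held without any 1 library, and Tnfrsf21 (adjusted p = 0.0672), Hrk and Cflar were lost without the first WT library at 0 h. With the marker covariate Cyct did not pass (-0.84, adjusted p = 0.202) and the other 5 did. Hrk and Cflar were also lost without the second library at 120 h, and Cyct without that, the first at 120 h or the second at 0 h.

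The genes whose log2(CPM + 1) followed each member most closely over the 28 libraries, among 10709 or 10710 genes with a mean of at least 5 CPM, are given as a description, since the libraries share depth and group structure. Pearson's r was 0.897 for Fkbp8 and 0.895 for Mepce with Bax, 0.885 for Luzp1 and 0.856 for Arhgap20 with Bcl2l11, and 0.811 for Aebp1 and 0.744 for Rrp1 with Bbc3. It was 0.803 for Tmem109 and 0.800 for Srf with Bcl2l1, 0.820 for Sf3b6 and 0.817 for Brix1 with Mcl1, and 0.742 for Smarcad1 and 0.737 for Trp53inp1 with Pmaip1. For Bid it was 0.810 for B4galt4 and 0.769 for Chmp2b, and for Bad 0.766 for Ubxn11 and 0.737 for Fam132b. Bak1 and Bcl2, with few reads, had lower values, 0.714 for Zdhhc12 and 0.696 for Mxd3, and 0.694 for Ankrd46 and 0.599 for Kbtbd4.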

How the data were processed

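RNA of sorted mouse germ cells was sequenced in 28 libraries, 2 in each of 14 groups. The submitters' processing notes list TopHat, Bowtie and Cufflinks with build mm10. The program that counted reads, and whether it used strand, are not given in the sources used here. Deposited by the authors were raw read counts per gene symbol in 2 tables, and a pair of tables of CPM values, named as FPKM, in which 25 of 28 columns were count columns rescaled to CPM (difference under 0.001 CPM). The 14 for WT came from the count table of the same number and 11 for KO from that of the other number. The 3 KO columns that match none (72, 96 and 120 h) hold whole multiples of 1 read and gave 4479729, 4190650 and 4122223 recovered reads, used in an alternative only. Tests were run on counts, and library numbers follow the count tables.

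Of 43280 features, 27 whose names read as dates were not used, and 39354 matched 1 gene name of GENCODE M21 (GRCm38), from which positions, exon lengths and overlaps were taken. CPM is count divided by the column total. The test was that of edgeR 4.0.16 under R 4.3.3 (TMM, default expression filter with the 14 groups, robust quasi-likelihood fit of 14 group means, Benjamini-Hochberg adjustment over 17519 genes per comparison, threshold 0.05). It was run on simulated data, with changes put only into genes with more reads than Bak1, Bbc3 and Bcl2 had. That check therefore does not cover these 3 genes. Count floors of 3 reads cover counting error only. SE values come from the quasi-likelihood fit, which also takes in the spread between libraries. Alternatives were DESeq2 1.42.0, its size factors, no filter, a replicate block, a smaller fit, the 3 shallow KO libraries left out or replaced by recovered reads, each library left out, and the marker covariate. Same-numbered WT libraries deviated together (correlations 0.220 to 0.569 over 21 pairs, all above 0.1), so the replicate numbers were taken to pair WT libraries. For KO, 9 of 21 pairs, and 3 of 49 pairs of KO with WT, were above 0.1, and these were not. The block was still fitted with the same term for WT and KO libraries. The main tests leave the pairing of WT libraries out, and no fit paired the WT libraries alone. All 10 members are reported. Of other apoptosis genes, up to 3 higher and 3 lower by fold change were named, and as like genes the 2 with the highest correlation. The members and lists were chosen with earlier results of these data known. Promoter windows and motifs come from RefSeq sequence for GRCm38.p6.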

Additional observations from a re-analysis of the deposited data

How the results depend on the processing

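Few reads limited Bak1, Bbc3 and Bcl2, and 2 libraries per group limited each single time. Counts of members called, main value first, moved as follows. KO against WT over the mean went from 5 to 0 with the marker covariate (chosen after the data were seen) and lay between 3 and 6 when 1 library was left out. KO against WT at single times went from 2 to 1 with no filter, and to 0 with the covariate, without the 3 shallow KO libraries and with the smaller fit, and lay between 1 and 3 with 1 library left out. Change over time in WT went from 3 to 5 with DESeq2 size factors, DESeq2, the covariate or the shallow libraries left out, to 6 with the replicate block (either numbering of KO, the crossed one chosen after the data were seen) or recovered reads, and to 1 with the smaller fit, with 1 to 5 when 1 library was left out. Change over time in KO went from 0 to 1 with DESeq2, no filter, the crossed block, the shallow libraries left out or recovered reads (Bad in each), with 0 to 1 when 1 library was left out. WT times against 0 h went from 11 calls to 7 with no filter, 9 with the smaller fit, 12 with DESeq2, the block or the shallow libraries left out, 14 with the covariate or recovered reads, and to between 1 and 13 with 1 library left out. KO times against 0 h went from 0 to 1 with recovered reads and stayed at 0 whichever library was left out, as did the interaction. The replicate block gave 5 calls for the mean comparison, 2 at single times, 0 for KO over time and 0 for the interaction. Besides the rise from 3 to 6 for change over time in WT, it changed only the call of Pmaip1 in WT at 18 h. Signs turned for Bax over the mean with the covariate (-0.10), for Mcl1 with the covariate (0.046) and with recovered reads (0.032) and between -0.10 and 0.030 with 1 library left out, and for Pmaip1 between -0.038 and 0.16 with 1 left out. Bax over the mean did not pass without the shallow libraries (0.28, adjusted p = 0.0953). Of the 47 other apoptosis genes, those that changed over the course went from 23 to 11 in WT with the smaller fit, and in KO from 6 to 12 with no filter, 13 with the smaller fit and 2 with the covariate. In these the cause was not tested. The sets of genes tested and the number of samples differ by construction in the no-filter, smaller-fit and left-out runs.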

Other observations

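Ratios of 2 members within a library, per kb of exon, describe RNA levels only, not the balance of the proteins, and have no test. Bcl2l11 per Bcl2l1, the BIM gene against the BCL-XL gene, ran from 0.137 to 0.566 in WT (median 0.262) and from 0.114 to 0.279 in KO (median 0.163). Bcl2l11 per Mcl1 had medians of 0.234 in WT and 0.179 in KO. Bax per Bcl2l1 had medians of 2.82 in WT and 3.19 in KO, and Bax per Mcl1 2.41 and 3.52. The highest Bax per Mcl1, 9.75, was the second WT library at 96 h, the library with 226 CPM of Bax. The recovered reads for the KO columns that match no count column put Bbc3 at 3.57 CPM at 72 h, 3.34 at 96 h and 4.37 at 120 h, from 16, 14 and 18 reads, and Bax at 112, 132 and 102 CPM.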
